A study of Mus musculus with 15 samples.

Results

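Oocytes of mouse preantral follicles grown in vitro for 10 days with neurotrophin-4 (NT-4) were compared with oocytes of follicles grown for the same time without it. The comparison holds the 6 libraries labelled as day 10 cultures, 3 with NT-4 and 3 controls, of the 15 libraries of the series. They were chosen by their titles and paired by the replicate number in the title. The other 9 libraries hold day 6 cultures and oocytes grown in vivo, and the day 6 libraries are used below only to set the NT-4 effect at the 2 times side by side.

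The cultured follicles came from Kunming mice of 12 to 14 days, and each library is a pool of 6 germinal vesicle oocytes amplified by SMART-Seq2, in which oligo(dT) primes reverse transcription and PCR amplifies the product. Both groups were grown in the same way apart from NT-4 in the medium, and their labels name no transgene or other treatment. The follicle was treated whole, so the oocytes were in contact with granulosa cells during culture. The groups were run side by side in replicated experiments, but no source states which samples share an experiment.

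NT-4 is a secreted neurotrophin that binds the receptor tyrosine kinase TRKB, the product of Ntrk2, and the low-affinity receptor p75, the product of Ngfr. TRKB signals through RAS and ERK kinases, through PI3K and AKT, and through phospholipase C, and in many cells this induces immediate early genes. In the ovary these factors have been linked to the survival and growth of early follicles. A fully grown germinal vesicle oocyte transcribes little, so its transcripts are largely a store laid down during growth.

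Total counts were 39.3, 43.5 and 45.6 M in control libraries 1 to 3 and 40.7, 33.9 and 38.5 M in NT-4 libraries 1 to 3. Libraries 1 and 2 of both groups were rich in an annotated rRNA gene and libraries 3 were not. That gene took 16.4%, 12.5% and 0.593% of control counts and 27.0%, 21.4% and 0.714% of NT-4 counts, so its share was higher with NT-4 in all 3 pairs. Genes with at least 1 count numbered 18242, 21009 and 22499 in the controls and 18089, 19124 and 21516 with NT-4, fewer with NT-4 in every pair. At an equal depth of 26.6 M counts outside the rRNA gene, the control libraries were expected to detect 18157, 20799 and 22201 genes and the NT-4 libraries 18049, 19123 and 21347. The part of rRNA share in the results below was tested only by leaving the gene out.

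The oocyte identity of the libraries was checked first against 25 oocyte markers, of which 24 or 25 had a count in each library. Their summed level was 23910 to 35750 CPM (counts scaled to a common library size) in the controls and 22550 to 39010 CPM with NT-4. Of 25 granulosa markers, 16 to 21 had a count in the controls and 19 to 22 with NT-4, summing to 261, 626 and 363 CPM and to 333, 458 and 189 CPM. Amh, the anti-Müllerian hormone gene of granulosa cells, was at 0 in all 6 libraries. Most other markers of that list had counts in each library, among them Inha, whose levels are given below. Markers of theca and stroma summed to at most 46.6 CPM and those of macrophages and blood to at most 75.7 CPM. In pools of this kind, fewer carried-over cells and less RNA per cell cannot be told apart.

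A gene was counted as changed when its fitted log2 fold change was beyond 1 and its unadjusted P under 0.05 in edgeR's quasi-likelihood test with the replicate number as a block, which is the threshold the study used. Of 16727 genes tested, 237 changed, or 1.42%. Of these, 90 were higher with NT-4 (0.538% of genes tested) and 147 were lower (0.879%). Leaving the rRNA gene out of the totals gave 115 higher and 118 lower, or 49.4% higher among the changed genes against 38.0%. In all, 574 genes (3.43%) had an unadjusted P under 0.05, where a test at that level marks 5% of genes when none differ. No gene had a Benjamini-Hochberg adjusted p under 0.05 in the quasi-likelihood test, against 22 in DESeq2 with the same block and 1 in edgeR's exact test without it. The smallest adjusted p of the quasi-likelihood test was 0.0723, the next was 0.289, and that of every other gene named below was 0.999. P-values here measure the spread between these libraries, which may be partly technical.

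**Figure D1:**
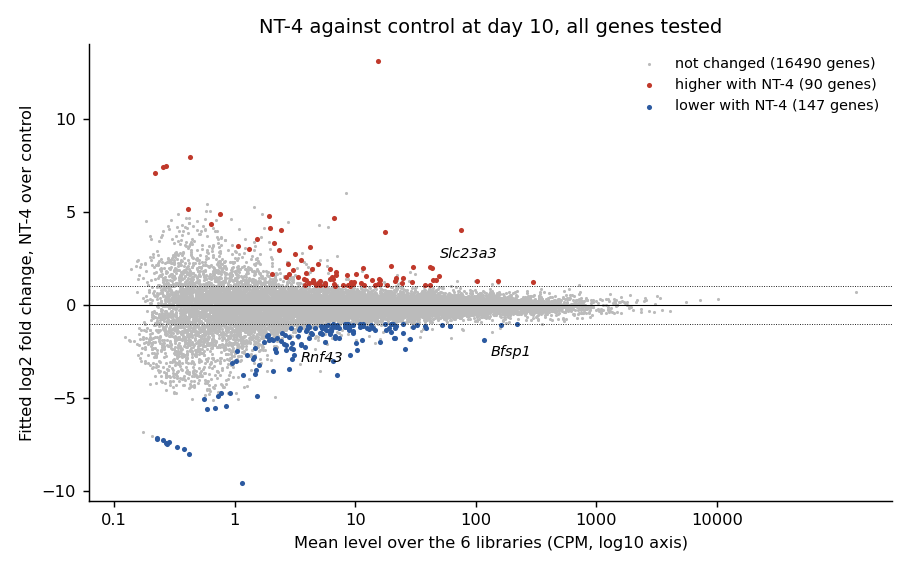
Each point is 1 of 16727 genes, with its mean level over the 6 libraries in CPM (log10 axis) against its fitted log2 fold change, NT-4 over control. Red and blue mark the 90 higher and 147 lower genes, dotted lines mark a log2 fold change of 1 either way, and the changed genes lie mostly at low and middle levels.

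Changed genes were mostly of low or middle level. The median of their mean levels was 5.96 CPM, against 9.5 CPM over all genes tested, and 51 had a library at 0. At a mean of 50 CPM or more, 10 of 3785 genes changed (0.264%), and below 5 CPM 103 of 6806 changed (1.51%). Of the 237 genes, 200 were protein coding, and 19 shared over 50% of their exon bases with another annotated gene, where counts of 1 gene cannot be told from those of the other without strand.

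The 3 pairs moved together in about the share of genes that independent pairs would give. All 3 within-pair differences had 1 direction in 4224 genes (25.3%), 1806 of them higher and 2418 lower with NT-4. With 3 independent pairs and no difference, that share would be 0.25. The 3 libraries of 1 group lay above all 3 of the other in 655 genes (3.92%), 262 of them higher with NT-4. If all 6 libraries were exchangeable and none differed, that share would be 0.1. Among the 237 changed genes, 228 had 1 direction in all pairs and 87 had groups that did not overlap, which the threshold itself favours. Across all genes tested the difference in 1 pair was nearly unrelated to that in another. Pearson's r was -0.01 for pairs 1 and 2, 0.02 for pairs 1 and 3 and -0.00 for pairs 2 and 3. Over the 3785 genes at a mean of 50 CPM or more, it was 0.058, 0.143 and -0.089. Spearman's rho over the same genes was 0.069, 0.195 and -0.162. These values are given across genes, which are not independent, and without a test.

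Slc23a3, a member of the ascorbate and nucleobase transporter family, was the clearest gene that was higher with NT-4. Its level was 12.6, 14.8 and 25.8 CPM in the controls and 50.2, 55.2 and 103 CPM with NT-4. All 3 NT-4 libraries lay well above all controls, and each pair rose about alike. The group means were 17.7 ± 7.04 CPM (SD, n = 3) and 69.5 ± 29.2 CPM (SD, n = 3). The fitted log2 fold change was 1.97 ± 0.23 (SE), with an unadjusted P of 3.46e-05 and an adjusted p of 0.289 (edgeR quasi-likelihood test, Benjamini-Hochberg). Slc23a3 (ENSMUSG00000026205) lies on the minus strand of chromosome 1 at 75125541 to 75133890 of GRCm38 and shares no exon base with another gene.

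Senp8, which encodes the protease that removes NEDD8 from proteins, followed the same pattern. It stood at 18.4, 25.5 and 29.6 CPM in the controls and at 40.2, 63.6 and 89.8 CPM with NT-4, and the groups did not overlap. The log2 fold change was 1.35 ± 0.23 (SE), with an unadjusted P of 4.98e-04. Senp8 (ENSMUSG00000051705) lies on the minus strand of chromosome 9 at 59734259 to 59750710.

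Smim8, Rsph3b and Ifitm6 were other genes that rose at a mean of at least 5 CPM, apart from those below that share many exon bases with a neighbour. Smim8, a small membrane protein gene, was at 10.4, 23.2 and 55.2 CPM in the controls and 43.4, 49.5 and 98.2 CPM with NT-4. Ifitm6, of the interferon-induced transmembrane family, was at 15.8, 27.1 and 102 CPM against 49.4, 34.0 and 381 CPM. In Smim8 and Ifitm6 each NT-4 library exceeded its own control, but the groups overlapped because libraries 3 of both groups were high. Rsph3b, a radial spoke gene, had a log2 fold change of 1.06 ± 0.24 (SE) and likewise overlapped.

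Bfsp1, which encodes the filament protein filensin, best known from the lens, was lower. It stood at 169, 185 and 171 CPM in the controls and at 19.1, 96.0 and 59.3 CPM with NT-4. The controls were tightly grouped and all NT-4 libraries were lower, library 1 most of all. The means were 175 ± 8.67 CPM (SD, n = 3) and 58.2 ± 38.5 CPM (SD, n = 3), and the log2 fold change was -1.85 ± 0.41 (SE), with an unadjusted P of 0.00229. Bfsp1 (ENSMUSG00000027420) lies on the minus strand of chromosome 2 at 143826528 to 143863173.

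Rnf43 and Lgr6, both of the R-spondin branch of WNT signalling, fell. Rnf43, a ubiquitin ligase that removes Frizzled receptors from the cell surface, was at 14.9, 16.8 and 21.7 CPM in the controls and at 3.83, 7.73 and 3.69 CPM with NT-4. The groups were far apart, with a log2 fold change of -1.88 ± 0.39 (SE) and an unadjusted P of 0.00147. Lgr6, an R-spondin receptor, was at 57.6, 68.7 and 26.8 CPM against 31.0, 32.1 and 10.1 CPM. Each pair fell by a like factor, but control library 3 lay below NT-4 libraries 1 and 2. Dvl1, which relays the signal of Frizzled, fell from 11, 8.12 and 11.5 CPM to 6.80, 3.38 and 3.40 CPM without overlap. Of 27 WNT genes tested, 2 were lower (Rnf43 and Dvl1) and none was higher, against 0.879% lower among all genes, with a median log2 fold change of -0.13 against -0.06. Lgr6 is not on that list.

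Nrcam, Col6a5, Syne1 and Itga5 were also lower. Nrcam, a neuronal cell adhesion molecule, was at 9.51, 12.4 and 8.95 CPM in the controls and at 3.92, 3.98 and 1.69 CPM with NT-4. Col6a5, a collagen VI chain, was at 19.98, 16.0 and 6.08 CPM against 6.69, 6.67 and 1.98 CPM. Syne1, which encodes nesprin-1 of the nuclear envelope, was at 29.8, 18.7 and 10.7 CPM against 11.9, 8.17 and 4.70 CPM. The groups were separate for Nrcam and overlapped for Col6a5 and Syne1, in which control library 3 was low. Itga5, the integrin alpha chain of the fibronectin receptor, fell from 6.56, 5.73 and 2.19 CPM to 0.749, 2.07 and 0.409 CPM, again without overlap.

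Fam124a fell from 21.2, 19.0 and 7.33 CPM to 3.57, 8.30 and 1.37 CPM, with a log2 fold change of -2.06 ± 0.41 (SE). Dgkh, a diacylglycerol kinase, Zfp618, a zinc finger gene, and Ptgds, a prostaglandin D synthase, had log2 fold changes of -1.15, -1.03 and -1.33. Only Zfp618 of these 4 genes had groups that did not overlap, at 24.9, 36.3 and 18.8 CPM against 10.9, 17.6 and 10.3 CPM. Sema5b, a semaphorin, and Sdcbp2, a syntenin, were lower in each pair at levels of at most 10.7 CPM.

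At a mean of 50 CPM or more the 10 changed genes were Bfsp1, Ifitm6, Hist2h3c1 and Tsc2, which have their values elsewhere in the text, and 6 others, named after their values were seen. Plxnb2, a semaphorin receptor, was at 317, 245 and 60.1 CPM in the controls and 127, 200 and 19.2 CPM with NT-4. Uvrag, which acts in autophagy and endosome traffic, was at 69.3, 78.9 and 93.7 CPM against 29.1, 24.3 and 73.4 CPM. Iqsec1, an exchange factor for ARF6, was at 390, 298 and 111 CPM against 198, 282 and 28.4 CPM. The fall was small in pair 2 for both Plxnb2 and Iqsec1 and in pair 3 for Uvrag. Arhgap1, a GTPase activator of CDC42, had a log2 fold change of -1.05 ± 0.36 (SE). Usp50, of the ubiquitin protease family, and Tbc1d22b, of a family of RAB GTPase activators, had 1.26 ± 0.41 (SE) and 1.31 ± 0.51 (SE). All 6 moved 1 way in the 3 pairs, and the groups overlapped in each.

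**Figure D2:**
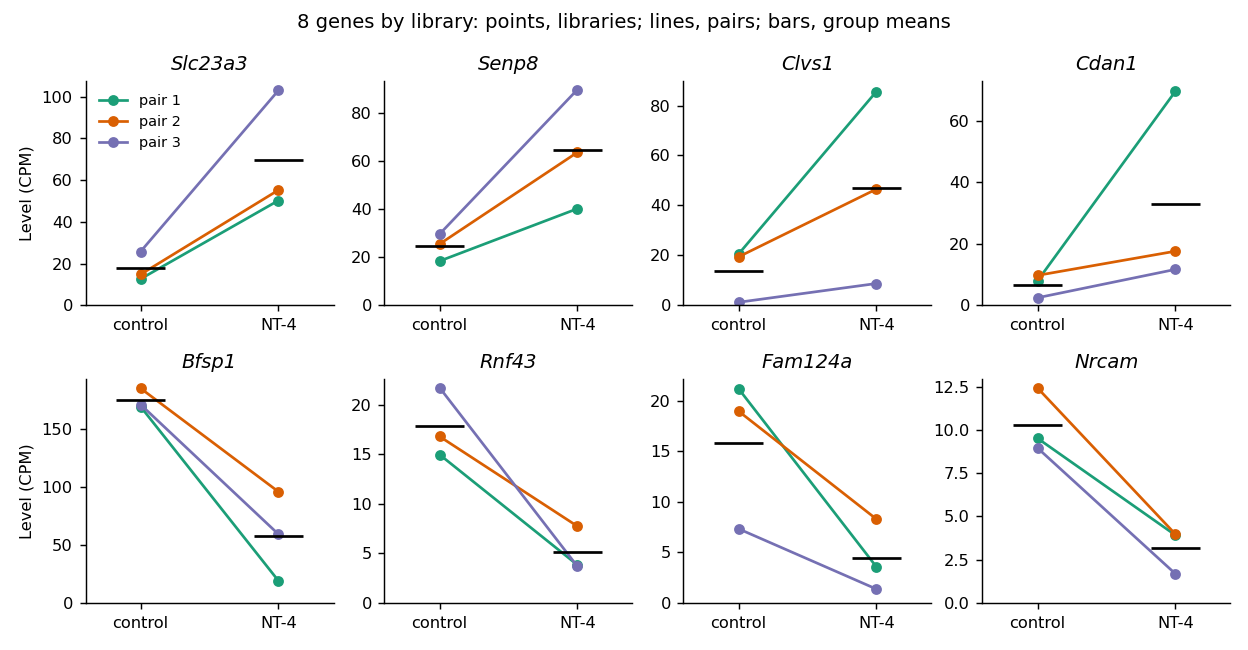
Levels in CPM of 4 genes that rose and 4 that fell, 1 panel a gene, with control on the left and NT-4 on the right. Points are libraries, coloured lines join the 2 libraries of a pair, black bars are group means, and every line rises in the upper row and falls in the lower row.

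Some of the changed genes share exon bases with a neighbour, so their counts are uncertain. The smallest P of all belonged to a gene annotated with the symbol Sept2 (ENSMUSG00000116048), a septin, all of whose exon bases lie within another gene of the same symbol. It was at 0 in all controls and at 56.1, 35.9 and 0.723 CPM with NT-4. Taken over the whole group, it was at least 1310-fold higher against a floor of 3 counts over the control group. Such bounds, here and below, hold for the whole groups and not for each pair. In pair 3 the log2 difference was 3.97. The other Sept2 gene (ENSMUSG00000026276) moved the opposite way, from 32.2, 42.7 and 20.9 CPM to 5.16, 10.1 and 14.1 CPM. Summed over both, the level was 32.2, 42.7 and 20.9 CPM in the controls and 61.3, 46.0 and 14.8 CPM with NT-4, and the groups overlapped.

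The same limit holds for Taf9, Cdan1, Clvs1, Lrch4, Hist2h3c1 and Pakap. Taf9, a subunit of TFIID that shares 73.8% of its exon bases with Ak6, rose from 4.05, 7.88 and 7.22 CPM to 15.1, 22.3 and 17.9 CPM. Clvs1, which encodes the lipid-binding protein clavesin, shares 36.3% and rose from 20.5, 19.4 and 1.18 CPM to 85.6, 46.5 and 8.70 CPM. Cdan1, codanin, shares 49.2% and rose from 7.96, 9.70 and 2.43 CPM to 69.5, 17.6 and 11.6 CPM. Lrch4 shares 77.2% and was at 10.6, 18.4 and 13.2 CPM against 131, 29.1 and 50.6 CPM. Groups did not overlap for Taf9, Cdan1 and Lrch4. Hist2h3c1, a histone H3 gene that lies wholly in another annotated gene, reached 436 CPM in NT-4 library 2 and was at most 6.07 CPM in the other 5. Pakap shares 98.2% with Akap2 and Palm2, and its log2 fold change of -3.75 rests on 38.8 CPM in control library 2, with at most 2.41 CPM in any other library.

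At low levels the clearest genes were AK157302, which rose from 0.760, 0.847 and 1.90 CPM to 5.36, 4.82 and 7.56 CPM, and Vmn2r24, a vomeronasal receptor gene. Vmn2r24 had 1.72, 0.304 and 4.84 CPM in the controls and no count with NT-4, at least 89.7-fold lower over the whole group. In pair 2 the log2 difference was -2.84. Vmn2r24 shares 18.3% of its exon bases with Vmn2r25. St8sia5, a sialyltransferase, had no count in the controls and 0.577, 1.72 and 0.265 CPM with NT-4, at least 36.0-fold higher. Xaf1 and Itgb6 were also counted as higher, at levels of at most 3.83 and 9.34 CPM. Among pseudogenes and other biotypes, Ptges3-ps, Rpl17-ps9 and Gm15754 rose and Rpl35a-ps2, Gm12435 and Ptprv fell. Rpl17-ps9 was at 3.83, 2.41 and 7.18 CPM against 12.2, 8.61 and 17.5 CPM, without overlap, but such copies can take reads of their parent genes.

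The receptors and ligands of NT-4 itself came next. The ligand genes Bdnf, Ntf3 and Ntf5 were too low to be tested. Ntf5, which encodes NT-4, had 4, 9 and 84 counts in the controls and 7, 8 and 57 with NT-4, with libraries 3 of both groups the highest.

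Ntrk2, the gene of TRKB, was at 0.675, 1.56 and 1.16 CPM in the controls and at 0.634, 2.35 and 2.82 CPM with NT-4. The groups overlapped, and the log2 fold change of 0.60 ± 0.77 (SE) did not pass the test. Per length, the level of Ntrk2 was 0.0317 to 0.0859 FPKM in the controls and 0.028 to 0.158 FPKM with NT-4. Ntrk3, the receptor of neurotrophin-3, was at 0.132 to 0.188 FPKM in the controls and 0.132 to 0.185 FPKM with NT-4. Ngfr, the gene of p75, had counts in 2 controls and 1 NT-4 library, at most 0.514 FPKM.

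The sortilin family held the highest levels among these receptors, per length. Sort1, a sorting receptor for proneurotrophins, was at 4.87, 4.08 and 4.55 FPKM in the controls and at 2.72, 2.79 and 2.63 FPKM with NT-4. The groups did not overlap, but the log2 fold change of -0.59 ± 0.25 (SE) was within 1 and so was not counted as changed. The totals behind the FPKM of these receptors hold the annotated rRNA gene, whose share was higher with NT-4 in each pair. In CPM, Sort1 was at 40.75, 29.16 and 28.88 in the controls and at 24.15, 22.41 and 18.45 with NT-4, also without overlap. Sorcs2 overlapped, at 3.01 to 4.10 FPKM and 2.75 to 4.21 FPKM. Sorcs3 was at 0.55, 0.284 and 1.39 FPKM against 0.373, 0.509 and 0.382 FPKM. Sorcs1 was counted as lower, from 0.45, 0.63 and 0.295 CPM to no count in any NT-4 library, at least 16.2-fold lower at a level close to the floor. Of 7 receptors tested, 1 was lower, against 0.879% of all genes, and none was higher. That 1 call, Sorcs1, was lost when any 1 of the pairs was left out.

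**Figure D3:**
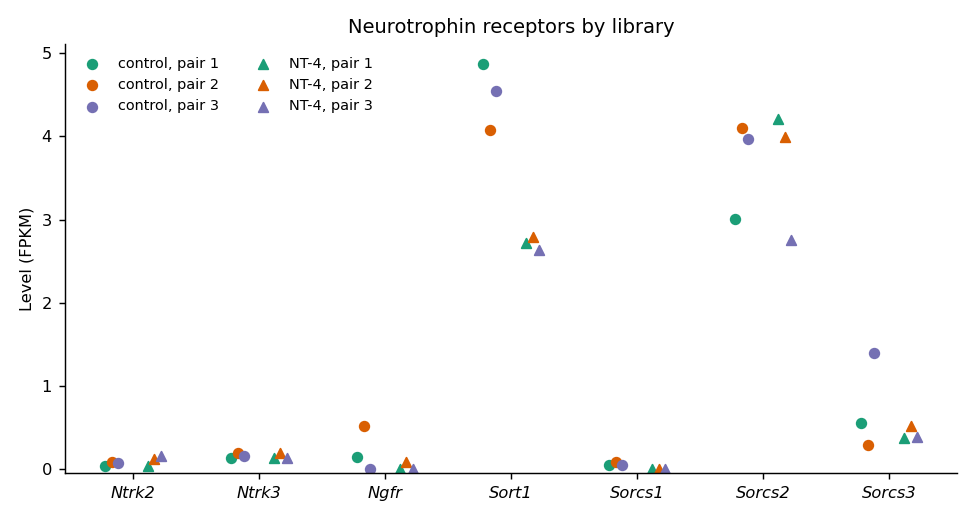
Level in FPKM of the 7 neurotrophin receptor genes tested, circles for control and triangles for NT-4 libraries, coloured by pair. Sort1 and Sorcs2 stand between 2.63 and 4.87 FPKM, and Ntrk2, Ntrk3, Ngfr and Sorcs1 are at most 0.514 FPKM in all 6 libraries.

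Lists of genes downstream of TRKB were read against the 1.42% of all genes that changed. None of 49 genes of the TRK adaptors and the RAS and ERK cascade changed in either direction, with a median log2 fold change of -0.00, and 1 of them (Rapgef1, an exchange factor for RAP1, log2 fold change -0.61) had an unadjusted P under 0.05. Mapk3, an ERK kinase gene, had a log2 fold change of 0.18 ± 0.19 (SE). Of 43 genes of PI3K, AKT, mTOR and FOXO signalling, 1 was lower and none higher, with a median of -0.17. The lower one was Tsc2, a brake on mTOR, at 104, 99.1 and 30.0 CPM in the controls and 48.7, 80.4 and 7.08 CPM with NT-4. Each pair fell, and the groups overlapped through control library 3. Foxo3, which holds primordial follicles dormant, was at 1567, 1158 and 179 CPM against 1287, 1010 and 137 CPM and was not counted as changed.

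Of 26 immediate early genes tested, 1 was lower and none higher, against 0.879% lower among all genes. Myc had 0.478, 1.58 and 0.221 CPM in the controls and no count with NT-4, at least 27.1-fold lower at a level near the floor. Egr1, a serum response gene, was at 152, 158 and 22.2 CPM against 68.7, 120 and 22.4 CPM. Fos was at 0.225, 6.56 and 0.276 CPM against 0.49, 3.26 and 0.554 CPM, and Jun at 0, 12.5 and 2.10 CPM against 1.44, 2.94 and 1.08 CPM. None of these 3 genes changed, and their groups overlapped.

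Genes that the study measured by qRT-PCR in oocytes, or named as regulatory factors or receptors, were compared next. The list was chosen only in part on these samples. The study predicted Jun, Nfkb1 and Rela from day 6 oocytes, and named Cd36 and Lrp1 from day 6 oocytes and granulosa cells. By qRT-PCR the study reported Cacna1s, Orai1 and Prkaca as lower in control cultures, set against oocytes grown in vivo. It reported Trp53, Rac1 and Arf6 as following a pattern that it defined by comparison with oocytes grown in vivo. Those comparisons and that method differ from the NT-4 against control RNA-seq values here. None of the 13 genes of the list that were tested changed at day 10 in either direction, where 1.42% of all genes did. Their median was 0.02, and the smallest unadjusted P was that of Egr1, at 0.0942. Arf6, a small GTPase of membrane traffic and cortical actin, was at 24.7, 26.2 and 47.7 CPM in the controls and at 95.9, 32.1 and 48.2 CPM with NT-4. It was higher in each pair, mainly in pair 1. Rac1, which shares 51.4% of its exon bases with another gene, was at 82.9, 85.2 and 312 CPM against 208, 84.2 and 385 CPM, and again only pair 1 stood out. Orai1, a store-operated calcium channel, was at 12.6, 9.29 and 51.8 CPM against 22.5, 10.7 and 66.1 CPM. Trp53, the tumour suppressor p53, was at 40.1, 47.6 and 19.4 CPM against 54.5, 38.6 and 35.6 CPM, with 1 pair lower and the others higher.

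Of the rest of these genes, the log2 fold changes were -0.89 ± 0.49 (SE) for Rela, -0.42 ± 0.25 (SE) for Lrp1, -0.31 ± 0.23 (SE) for Stat3, -0.26 ± 0.51 (SE) for Nfkb1 and 0.19 ± 0.23 (SE) for Cd36. Those of Prkaca, a catalytic subunit of protein kinase A, and of Jun were 0.02 ± 0.34 (SE) and -0.05 ± 1.69 (SE). Foxa2 had no count in any library, and Cacna1s had 2 counts in 1 NT-4 library.

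Genes that mark the oocyte were also compared. None of 24 oocyte markers tested changed, where 1.42% of all genes did, and their median was -0.09. Bcl2l10, an oocyte member of the BCL2 family, was at 1872, 1598 and 4296 CPM in the controls and 2983, 1895 and 6431 CPM with NT-4, a log2 fold change of 0.50 ± 0.17 (SE) with an unadjusted P of 0.0221. It was higher in each pair, and within the fold threshold. Gdf9, an oocyte growth factor, was at 2440, 2422 and 5505 CPM against 2276, 1706 and 3874 CPM. Kit, the receptor of KIT ligand, was at 1617, 1199 and 83.3 CPM against 868, 1058 and 69.3 CPM. Both were lower in each pair and neither changed. The zona pellucida genes Zp1 and Zp3 had log2 fold changes of -0.12 ± 0.18 (SE) and -0.36 ± 0.22 (SE), and the transcription factors Nobox, Lhx8 and Sohlh2 had 0.08, -0.10 and -0.40.

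Of the 9 genes of the subcortical maternal complex, 40 of meiotic arrest and resumption, 46 of the spindle, 41 of maternal mRNA storage and decay, 78 of actin organisation and 33 of calcium signalling, none changed. Their medians ran from -0.18 for calcium signalling to 0.00 for the spindle. Over all genes tested 1.42% changed, a share at which lists of these sizes would hold few or no changed genes. Cfl1, the actin-severing protein cofilin, was at 304, 391 and 106 CPM against 566, 408 and 321 CPM, a log2 fold change of 0.85 ± 0.30 (SE). Kifc1, a minus-end kinesin of the spindle, was at 54.2, 47.2 and 11 CPM against 28.7, 29.1 and 6.29 CPM, a log2 fold change of -0.81 ± 0.24 (SE). In both genes all pairs moved 1 way, with an unadjusted P of 0.0221 for Cfl1 and 0.0114 for Kifc1. Cdc20 and Eif4enif1, an activator of the anaphase-promoting complex and a translational repressor, had -0.48 and -0.46. Tle6 and Trpm7, of the maternal complex and a cation channel, had -0.42 and -0.71.

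Of 39 genes of DNA methylation and maternal chromatin, 12 were lower and 2 higher in all 3 pairs, where 25.3% of all genes had 1 direction (2418 lower and 1806 higher of 16727). In this list 1 was counted as lower and none as higher, against 0.879% lower among all genes. The median was -0.23 against -0.06 over all genes. Kdm5a, a histone lysine demethylase, fell from 6.11, 3.02 and 13.1 CPM to 1.67, 1.22 and 5.40 CPM, and the groups overlapped. Uhrf1, which brings DNMT1 to replicated DNA, was at 1229, 972 and 380 CPM against 595, 689 and 255 CPM, a log2 fold change of -0.71 ± 0.20 (SE) with an unadjusted P of 0.00779. The lysine methyltransferases Kmt2b, Kmt2c and Kmt2d had log2 fold changes of -0.63, -0.48 and -0.45, and Suv39h2 had 0.73. Dnmt3a and Dnmt3l, which set methylation in growing oocytes, had -0.21 and -0.15. The list's median was 0.00 in pair 2 and -0.48 in pair 3, and its genes are long, with a median exon length of 6795 bases.

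Lipid and antioxidant genes held 6 of the 14 changed genes of the lists. Over all lists together, the share of changed genes was near the 1.42% of all genes tested. Dgat2, which makes triglycerides for lipid droplets, fell from 22.7, 15 and 15.1 CPM to 8.71, 4.76 and 9.39 CPM without overlap. Dhcr7, an enzyme of the last steps of cholesterol synthesis, fell with a log2 fold change of -1.05 ± 0.33 (SE). Of 51 lipid genes, 3 were lower and none higher, with a median of -0.16. Gss, glutathione synthetase, was at 8.81, 10.6 and 3.67 CPM against 4.47, 1.97 and 1.59 CPM, Txnrd1, thioredoxin reductase, at 39.2, 35.6 and 44.4 CPM against 8.50, 35.5 and 18.4 CPM, and Gpx7 at 0.901, 1.95 and 6.58 CPM against 0, 0.407 and 3.44 CPM. Only Txnrd1 of the 3 had groups that did not overlap, and there control library 2 and NT-4 library 2 were nearly equal. Of 34 antioxidant genes, 3 were lower and none higher, while the median was 0.10, and 0.879% of all genes were lower.

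None of 38 heat shock and unfolded protein response genes changed, and 12 were lower and 3 higher in all 3 pairs, against 25.3% of all genes in either direction, with a median of -0.24. Hspa8, the constitutive heat shock cognate, was at 399, 381 and 593 CPM in the controls and 287, 260 and 425 CPM with NT-4, a log2 fold change of -0.50 ± 0.18 (SE). Hspa5 and Calr, chaperones of the endoplasmic reticulum, were lower in each pair with groups that did not overlap, at log2 fold changes of -0.52 and -0.51. None of 34 apoptosis genes, 33 genes of TGF-beta and BMP signalling and 6 oocyte growth factors and Kit changed, where 1.42% of all genes did. Of 9 connexins tested, 1 was lower (Gjb2), against 0.879% lower among all genes. Gjb2 went from 51.2, 94.2 and 5.40 CPM to 52.6, 25.5 and 1.57 CPM, with pair 1 nearly equal.

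The mitochondrial genome had the highest median of the 28 lists with genes tested. All 13 protein-coding mitochondrial genes had a fitted log2 fold change above 0, with a median of 0.65. Of these, 8 were higher in all 3 pairs, as were 1806 of the 16727 genes tested, though none of the 13 passed the fold threshold. mt-Nd2, a subunit of complex I, was at 42.4, 66.8 and 85.7 CPM in the controls and 67.6, 106 and 134 CPM with NT-4, a log2 fold change of 0.66 ± 0.20 (SE) with an unadjusted P of 0.0113. mt-Nd4 was at 134, 197 and 157 CPM against 303, 284 and 200 CPM, without overlap of the groups. The share of all counts on the mitochondrial genome was 1.05%, 1.11% and 0.612% in the controls and 1.12%, 1.23% and 0.738% with NT-4, higher in each pair. That share takes in every gene of that genome, and its total holds the annotated rRNA gene, so it is a different measure from the list's medians. The list's medians in pairs 1 to 3 were 0.73, 0.41 and 0.64. Under every alternative that kept all 6 libraries the list's median stayed between 0.44 and 0.70.

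Of 51 replication-dependent histone genes tested, 14 were higher and 3 lower in all 3 pairs, against 25.3% of all genes in either direction. In this list 1 was counted as higher (Hist2h3c1, above), where 1.42% of all genes changed in either direction, and the median was 0.33. Most histone transcripts of dividing cells end in a stem-loop and not in a poly(A) tail, and the part of capture in these values was not tested. Cytosolic ribosomal protein genes went different ways in the pairs, with 66, 4 and 54 of 76 higher with NT-4 in pairs 1, 2 and 3 and a median of 0.03 in the fit. None changed, and the smallest P was that of Rps2, at a log2 fold change of -0.69 ± 0.22 (SE).

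Markers of other ovarian cells also differed between pairs. The median of 21 granulosa markers tested was 1.32 in pair 1, -0.38 in pair 2 and -1.01 in pair 3. None of them changed, where 1.42% of all genes did. Inha, the inhibin alpha chain, was at 3.52, 79.8 and 98.3 CPM in the controls and 12.9, 48.6 and 48.1 CPM with NT-4. Star, of steroid synthesis, was higher with NT-4 in each pair without overlap of the groups, at most at 1.67 CPM. Its log2 fold change of 1.65 ± 1.06 (SE) was not counted as changed. Lhcgr, the receptor of luteinizing hormone, was at most 4.38 CPM. The theca and stroma markers had a count for 17 of 19 genes in control library 3 and for 4 to 10 in the other 5 libraries. C1qb, a macrophage complement gene, was highest in libraries 3 of both groups, at 46.8 and 30.4 CPM. The part of carried-over cells in the changes above was not tested.

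**Figure D4:**
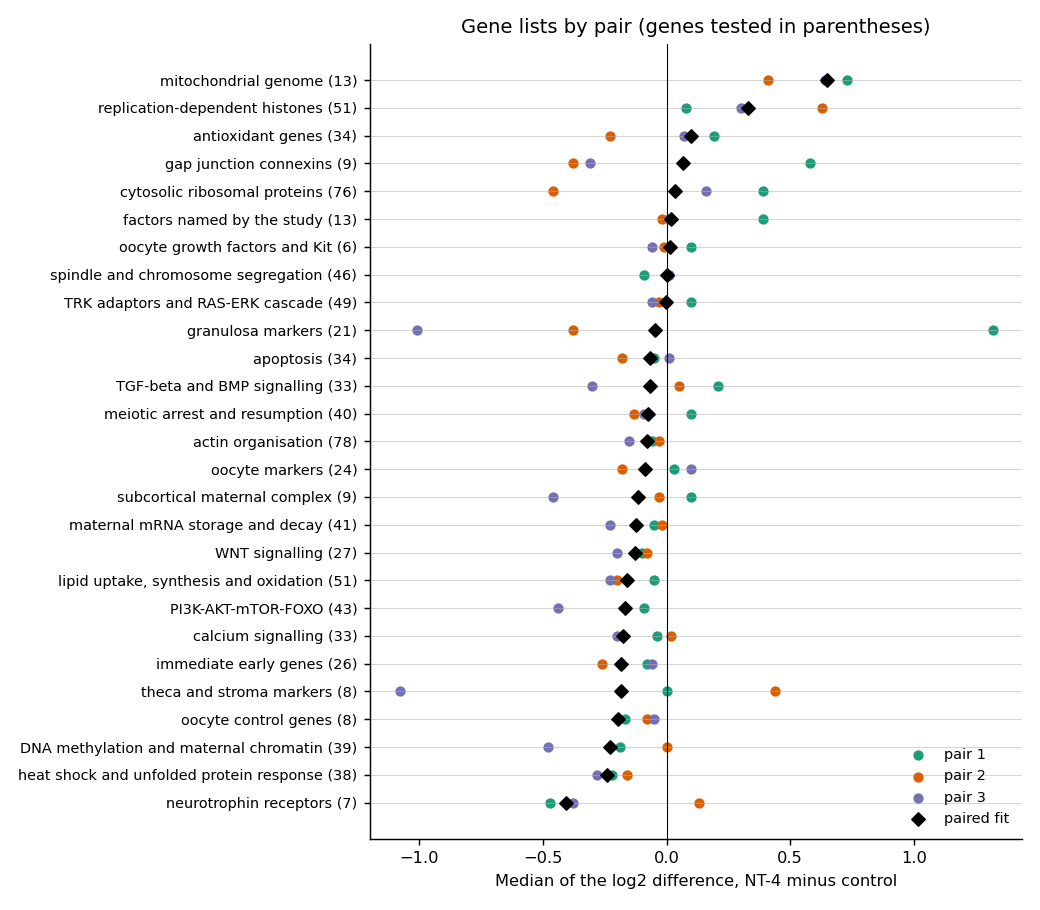
Median log2 difference, NT-4 minus control, of each gene list with at least 6 genes tested, for pairs 1 to 3 (coloured points) and for the paired fit (black diamonds). Mitochondrial genes stand at 0.41 to 0.73 in all pairs, whereas the granulosa marker median runs from -1.01 to 1.32.

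The difference between the groups also ran with the length of the gene. Over 9109 protein-coding genes with a mean of at least 5 CPM, Spearman's rho of the within-pair difference with exon length was -0.21 in pair 1, 0.16 in pair 2 and -0.27 in pair 3, given across genes without a test. In the shortest of 5 groups of these genes of equal size the median differences were 0.13, -0.22 and 0.25, and in the longest group -0.20, 0.02 and -0.22. Short genes were thus relatively higher with NT-4 in pairs 1 and 3 and lower in pair 2. The median exon length was 3114 bases in the 65 protein-coding genes that were higher, 5817 in the 135 that were lower and 4413 in the other protein-coding genes. The ribosomal protein genes, with a median exon length of 1806 bases, followed the same order of pairs. Mitochondrial genes and replication-dependent histones, with medians of 784 and 618 bases, did not, with medians of 0.41 and 0.63 in pair 2. With a per-library correction for exon length, an alternative chosen after seeing the data, 208 genes changed, 89 higher and 119 lower, and 186 of them were among the 237.

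**Figure D5:**
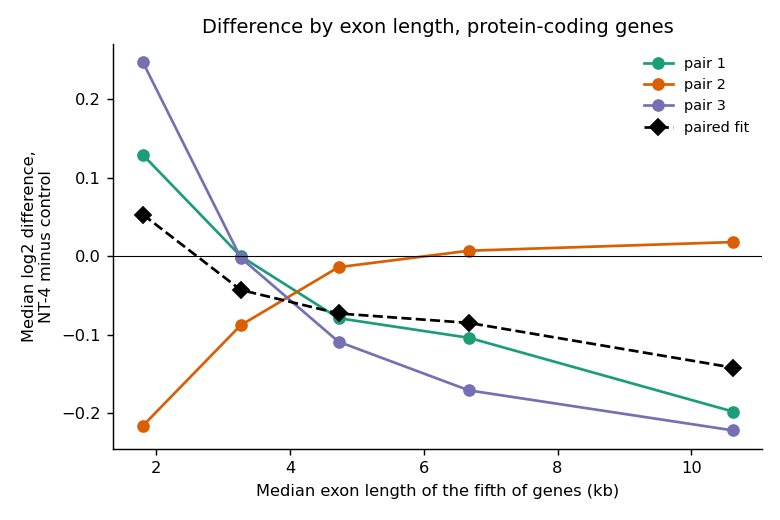
Median log2 difference, NT-4 minus control, in 5 groups of protein-coding genes of rising exon length (median length in kb on the horizontal axis), for each pair and the paired fit. Pairs 1 and 3 fall from 0.13 and 0.25 in the shortest group to -0.20 and -0.22 in the longest, and pair 2 rises from -0.22 to 0.02.

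How far single genes held without 1 pair was examined next. Of the 237 changed genes, 38 also passed the same threshold without each pair in turn, and 35 of these, 17 higher and 18 lower, passed in all of 8 paired alternatives, which were DESeq2, its size factors, no filter, the rRNA gene left out, the exon-length correction and each pair left out. These 8 hold neither the minimum count of 50, which shared 172 of the 237 genes, nor the paired fit of the 12 in vitro libraries, which shared 22. Without the replicate block 55 of the 237 remained, and 21 genes passed both that and the 8 paired alternatives. Slc23a3, Senp8, AK157302, Rpl17-ps9, Bfsp1, Rnf43, Nrcam, Itga5, Dgat2 and Gm12435 were among the 21. So were Vmn2r24, both Sept2 genes, Taf9, Cdan1, Lrch4 and Hist2h3c1, which share exon bases with other genes. Clvs1, Fam124a, Col6a5, Sema5b, Sdcbp2, Ifitm6, Gm15754 and Rpl35a-ps2 passed the paired alternatives and not the fit without the block. Tsc2, Lgr6, Kdm5a, Dvl1 and Gss each lost the call without 1 of the pairs, Gjb2, Dhcr7 and Txnrd1 without 2 of them, and Gpx7 and Sorcs1 without any 1 of them. Smim8, Rsph3b, Dgkh, Zfp618, Ptgds, Uvrag, Arhgap1, Usp50, Tbc1d22b, Pakap, Myc, St8sia5 and Xaf1 likewise lost it without 1 of the pairs. Plxnb2, Iqsec1, Ptprv, Itgb6 and Fam220a lost it without 2 of them. Syne1 and Ptges3-ps kept the call without each pair but lost it in another paired alternative.

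The effect of NT-4 at day 10 was set against that at day 6, in 1 fit of the 12 in vitro libraries. The difference between the effects was beyond 1 on the log2 scale with an unadjusted P under 0.05 in 770 of 19272 genes (4%), and in none was the adjusted p under 0.05 (772 genes had an unadjusted P under 0.05, and the smallest adjusted p was 0.955). At day 6 NT-4 libraries 1 and 2 were shallow, and the median log2 fold change over all genes there was -0.58. Of the 237 genes changed at day 10, 130 (54.9%) had the same sign at day 6, against 52% of 16719 genes, and 18 passed the threshold at day 6, 11 of them in the same direction, where 1411 of all 19272 genes passed it at day 6.

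Among protein-coding genes that changed at day 10 alike in all pairs at a mean of at least 5 CPM, the difference between days had the smallest P in Pakap, Fam220a, Senp8 and Lrch4. The day 10 change by which these genes were chosen also enters that difference, so its unadjusted P is no independent test. Senp8 was higher with NT-4 at day 10, whereas on the scale of all 15 libraries it stood at 60.9, 78.3 and 68.1 CPM in the day 6 controls and 13.7, 3.48 and 33.8 CPM with NT-4 at day 6. Its log2 difference between days was 3.63, with an unadjusted P of 0.00839 and an adjusted p of 0.955 in the edgeR interaction test. For Slc23a3 the day 6 log2 fold change was 0.13, and the difference between days had an unadjusted P of 0.201. Fam220a was at 0.394, 0.174 and 25.9 CPM in the day 10 controls and 46.1, 4.85 and 28.4 CPM with NT-4, and shares 61.0% of its exon bases.

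Levels in oocytes grown in vivo are given for the 7 protein-coding genes of the 21 above that had a mean of at least 5 CPM and shared no exon base with another gene, a choice made after their values were seen. They are on the scale of all 15 libraries and carry no test. The rRNA gene took 0.187%, 37.9% and 0.227% of counts in the in vivo libraries labelled replicates 2, 3 and 4. Their totals were 42.7, 19.0 and 43.5 M counts. In each day 10 group, libraries 1 and 2 were rich in that gene and library 3 was not. The groups are thus not matched in this respect, and its part in the values below was not tested. Slc23a3 stood at 76.4, 25.7 and 65.8 CPM in vivo, at 12.6 to 24.6 CPM in the day 10 controls and at 51.3 to 99.98 CPM with NT-4. Senp8 stood at 81.9, 48.8 and 32.9 CPM in vivo, at 18.3 to 28.3 CPM in the controls and at 41.0 to 87.1 CPM with NT-4. Atg10, which acts in autophagosome formation, stood at 17.2, 0.485 and 19.5 CPM in vivo, at 2.39 to 5.51 CPM in the controls and at 8.60 to 12.4 CPM with NT-4. In Atg10 the in vivo library labelled replicate 3 lay below all the others. Bfsp1 stood at 107, 124 and 112 CPM in vivo, at 164 to 194 CPM in the controls and at 19.6 to 104 CPM with NT-4. Rnf43 stood at 3.79, 11.1 and 3.70 CPM in vivo, at 14.9 to 20.7 CPM in the controls and at 3.58 to 8.36 CPM with NT-4. Rnf43 in vivo thus lay below all day 10 controls. Dgat2 stood at 28.9, 59.1 and 32.0 CPM in vivo, at 14.4 to 22.6 CPM in the controls and at 5.14 to 9.12 CPM with NT-4. Nrcam stood at 6.05, 37.8 and 6.12 CPM in vivo, at 8.55 to 13.0 CPM in the controls and at 1.64 to 4.30 CPM with NT-4. For Dgat2 the in vivo libraries were all above the controls and the NT-4 libraries all below them, and for Nrcam the NT-4 libraries were the lowest of the 3 groups.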

How the data were processed

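RNA of 6 oocytes per library was amplified by SMART-Seq2 and sequenced paired end. Low-quality reads were discarded and HISAT2 was used for alignment to mm10 by the authors, whose deposited values are raw, whole-number counts of 1 library a file for Ensembl genes. StringTie was used for assembly and FPKM, but how the deposited counts were taken, and the annotation release, are not given in the sources used here. Of 55401 gene identifiers, 99.5% have a symbol in GENCODE vM21 (GRCm38), which also gave exon lengths, coordinates and shared exon bases.

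The quasi-likelihood fit was made with edgeR 4.0.16 under R 4.3.3 (filterByExpr with a minimum count of 10, TMM, glmQLFit and glmQLFTest) on the 6 libraries with group and replicate number as terms; DESeq2 1.42.0 was an alternative, and limma 3.58.1 was loaded by edgeR. SE is the log2 fold change divided by the square root of F. CPM use TMM library sizes, and within-pair differences are of log2 CPM with a prior count of 2. FPKM use all counts and union exon length. With 3 pairs an exact sign-flip test cannot go below 0.25, and with 3 against 3 libraries below 0.1, so single values carry no such p. Groups come from the sample titles. Deviations from the group mean correlated between same-numbered libraries with r of 0.41, 0.45 and 0.78 over the genes tested, all above 0.1, so the numbers were taken as pairs. Differently numbered libraries 1 and 2 correlated as well (0.41 and 0.29), so the deviations set libraries 3 apart from the rest and do not tell numbers 1 and 2 apart. The fitting script was tested on simulated data.

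Genes named are the 12 higher and 12 lower protein-coding genes with the smallest P among those changed alike in all pairs at a mean of at least 5 CPM, 4 and 4 below 5 CPM, 3 and 3 of other biotypes, all neurotrophin genes, oocyte control genes and factors the study names, the changed members of each list (or the one with the smallest P), and the 4 with the smallest interaction P among all that meet the first set's conditions. Mapk3, Fos, Uhrf1, Kmt2b, Kmt2c, Kmt2d, Suv39h2, Dnmt3a, Dnmt3l, Hspa5, Calr, mt-Nd4, Inha, Star, Amh, Atg10, Plxnb2, Uvrag, Iqsec1, Arhgap1, Usp50 and Tbc1d22b were added after their values were seen. Some genes that the rule names are not reported here. The comparison, gene lists and rules were chosen with earlier results of these data known. The series-wide table holds the same counts and was not used.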

Additional observations from a re-analysis of the deposited data

How the results depend on the processing

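With the replicate block, and no gene past an adjusted p of 0.05, 237 genes changed. No replicate block gave 66 changed genes, of which 55 were among the 237, the edgeR exact test without the pairing gave 94, the 12 in vitro libraries with the replicate block gave 144 and DESeq2 with the block gave 549, 226 of them shared. All 15 libraries without the block gave 261, of which 18 were shared. Scaling by DESeq2 size factors, leaving out the rRNA gene, a minimum count of 50 and no filter gave 215 to 330, and a minimum count of 50 turned the split to 114 higher and 101 lower. Adjusted p-values under 0.05 numbered 22 in DESeq2, 1 in the exact test, 2 with no filter and 0 in the other settings that kept all libraries. Leaving out libraries, as pairs or singly without the block, gave 76 to 420 changed genes and 0 to 2 adjusted calls. Of these, leaving out pair 1, 2 or 3 in the paired fit gave 358, 420 and 313 genes, with 115, 116 and 115 of the 237. The cause of these differences was not tested.

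Changed members of the lists numbered 14 in all, a share of the listed genes near the 1.42% of all genes. They numbered 6 with no replicate block and in the exact test, 2 over all 15 libraries, 4 over the 12 in vitro libraries, and 2 to 32 with libraries left out. The difference between the days passed the threshold in 770 genes, and in 352 to 2631 with 1 replicate left out, the highest without replicate 3. Of the list medians under alternatives, 426 moved by less than the spread between the pairs and 106 by more. With libraries left out the ribosomal protein median ran from -1.37 to 1.61.

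No named gene that changed turned its direction in the settings that kept all libraries. Of genes that had not changed, Jun turned to 0.10 over the 12 in vitro libraries, 0.11 in DESeq2 and 0.003 without the rRNA gene, Lhcgr to -0.35 and Prkaca to -0.019 over the 12 libraries. With libraries left out, the log2 fold change took both signs in Bcl2l10 (-0.018 to 1.12), C1qb (-1.75 to 1.12), Cd36 (-0.32 to 0.60), Foxo3 (-0.78 to 0.29), Gdf9 (-0.73 to 0.11), Ifitm6 (-0.14 to 2.83), Jun (-2.02 to 2.24), Kit (-1.05 to 0.05), Lhcgr (-1.60 to 9.09), Lhx8 (-0.40 to 0.24), Lrp1 (-1.12 to 0.28), Nfkb1 (-0.83 to 0.28), Nobox (-0.17 to 0.39), Ntrk3 (-0.13 to 0.28), Orai1 (-0.49 to 1.60), Pakap (-8.24 to 1.12), Prkaca (-0.19 to 0.19), Rac1 (-0.069 to 1.42), Rela (-1.39 to 0.39), Rpl35a-ps2 (-5.10 to 0.86), Rsph3b (-0.092 to 2.25), Sorcs2 (-0.14 to 0.44), Sorcs3 (-1.10 to 0.31), Stat3 (-0.61 to 0.12), Suv39h1 (-0.90 to 0.51), Tle6 (-0.81 to 0.077), Trp53 (-0.014 to 0.66), Zp1 (-0.29 to 0.22), Zp3 (-1.52 to 0.93) and Zp4-ps (-1.36 to 2.05).

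Groups of 3 libraries, and counts of PCR copies without molecular identifiers, limit these results, most of all in genes of low level.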
